A study of Mus musculus with 6 samples.

Results

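The AP-1 transcription factors were read out here in the prostate cells of 6-day-old mice. The 10 genes Fos, Fosb, Fosl1, Fosl2, Jun, Junb, Jund, Atf3, Batf and Maff were taken by name, and every gene feature of the array that carried 1 of these symbols was used, which gave 11 of 55681 features. Fosl2 had 2 features and each of the other genes had 1. All samples were prostate from untreated male FVB/N mice carrying the Tg 11.5kb-GFP transgene, in which the s-SHIP promoter drives GFP, so the LSC GFP- cells carried the transgene too. According to the study, this promoter is active in vascular smooth muscle as well as in epithelial cells of the young prostate. The tissue had been digested for 60 min at 37 °C in 200 U/ml collagenase and sorted for cells without the lineage markers Ter119, CD31 and CD45 and with Sca-1 and CD49f, which are called LSC cells. The LSC cells were then split by fluorescence into LSC GFP+ and LSC GFP- cells, with 3 independent samples of each, and their RNA was amplified before labeling. The study asked how gene expression in the GFP+ cells, which it treats as candidate stem cells of the developing prostate, differs from that in the rest of the LSC population. The number of animals behind a sample is not given in the sources used here.

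AP-1 is a dimer of basic leucine zipper proteins. A member of the Fos family must pair with a Jun protein to bind DNA, whereas Jun proteins can also pair with each other, and Atf, Batf and small Maf proteins join as further partners. Most of these genes are early response genes: their transcripts are short-lived and accumulate quickly when growth factor, cytokine or stress signals reach the cell through MAP kinases, and the factors then act on genes of proliferation, migration and matrix turnover. In epithelia, AP-1 is known for its part in keratinocyte growth and in the response to wounding.

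The control regions of several of these genes hold sites for the CREB and ATF factors or for AP-1 itself, so the bases just before the transcription start are shown for the members whose levels are described first and for 2 members that did not pass the test. The RefSeq promoter table of GRCm38.p6 held windows for 9 of the 10 members, 11 windows in all, because Maff has 3 start sites in it. Each stretch is given 5′ to 3′ on the strand of the gene and covers the 120 bases that end just before the start. Capitals mark TGACG or its reverse complement (the core of the CRE, the cyclic AMP response element), the full CRE TGACGTCA, the site TGACATCA known from the Jun promoter, and in Fos the TATA box TATAAA. Fos lies on the plus strand (chr12:85473770-85473889) and Fosb on the minus strand (chr7:19310046-19310165). Jun (chr4:95052223-95052342), Junb (chr8:84978749-84978868) and Atf3 (chr1:191183334-191183453) lie on the minus strand. The Maff stretch precedes the second of its starts on the plus strand (chr15:79347400-79347519). Fosl2 (chr5:32136352-32136471) and Jund (chr8:70697619-70697738) lie on the plus strand.
Fos: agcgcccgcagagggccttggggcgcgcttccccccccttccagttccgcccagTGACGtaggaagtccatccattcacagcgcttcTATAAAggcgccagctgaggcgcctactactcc
Fosb: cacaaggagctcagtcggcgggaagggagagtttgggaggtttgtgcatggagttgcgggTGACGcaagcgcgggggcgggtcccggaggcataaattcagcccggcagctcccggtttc
Jun: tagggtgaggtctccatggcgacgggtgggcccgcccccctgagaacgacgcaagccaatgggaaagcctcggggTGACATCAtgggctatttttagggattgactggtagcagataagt
Junb: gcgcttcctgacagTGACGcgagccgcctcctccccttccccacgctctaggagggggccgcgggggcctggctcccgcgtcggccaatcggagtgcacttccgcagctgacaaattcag
Atf3: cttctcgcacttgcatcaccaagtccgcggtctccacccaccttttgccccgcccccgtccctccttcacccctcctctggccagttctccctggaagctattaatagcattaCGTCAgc
Maff: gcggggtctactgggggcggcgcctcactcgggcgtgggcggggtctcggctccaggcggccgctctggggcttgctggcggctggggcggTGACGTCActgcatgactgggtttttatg
Fosl2: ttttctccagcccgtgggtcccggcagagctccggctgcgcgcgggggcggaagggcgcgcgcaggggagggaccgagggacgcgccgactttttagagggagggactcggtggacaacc
Jund: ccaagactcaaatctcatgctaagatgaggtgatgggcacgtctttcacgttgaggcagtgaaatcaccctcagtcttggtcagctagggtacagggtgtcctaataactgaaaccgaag
Over 250 bases before the start and both strands, TGACG was found in 7 of the 11 member windows. These belong to 6 of the 9 members with a window, Fos, Fosb, Junb, Atf3, Batf and Maff. The same letters were in 17.8% of all 32851 windows of the table and in a window of 19.8% of its genes. Since TGACG lies within TGACGTCA, the complete element was counted apart, and of the members only Maff held it, at positions -29 to -22 from its second start, against 1.55% of all windows. The site TGACATCA was present at positions -45 to -38 from the Jun start and again from the third Maff start, against 2.93% of all windows. TATAAA was found in the Fos window alone among the members, at positions -33 to -28, and in 12.4% of all windows. Neither the AP-1 site TGACTCA, in 4.46% of all windows, nor the CArG box, in 1.47%, was among the letters of any member window. Sites further upstream than these 250 bases, or with other letters, were not searched. TGACG and TGACATCA were added to the search after the member windows had been seen, and a match describes the letters only.

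The levels of the members are given on the log2 scale of the array signal, where 0 is the 75th percentile of that array. A difference between populations is LSC GFP+ minus LSC GFP- on this scale. A feature entered limma's test if 1 population or both had it well above background on each of 3 arrays, and 9 of the 10 members did. The call used for counts is an unadjusted p under 0.05, the threshold of the study's methods, and p values adjusted over all 36990 tested features are given beside it. Between 36651 and 42123 features were well above background on an array, 0 spots were saturated, and all 6 arrays came from 1 slide. The number of arrays limits the precision of every difference.

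The labelled cells carried the transcripts of their sorting and basal markers. Krt5, Krt14, Trp63 and Itga6 (the CD49f gene) and Ly6a (the Sca-1 gene) were well above background on all 6 arrays. Luminal transcripts were there as well. Krt8, a luminal keratin, was at 3.83 to 4.83 on the 6 arrays, and Krt5 at 4.01 to 5.20. All 12 luminal markers were above background on all 6 arrays. Their list mean was 2.29 to 2.82 on LSC GFP+ arrays and 2.49 to 2.78 on LSC GFP- arrays. Markers of cells outside the epithelium were present too, and some moved with the populations. By surface staining, the study reports only epithelial cells, positive for CD24, in its sorted LSC population. It also reports little or no Sca-1 and CD49f on the smooth muscle cells with high GFP. Of the smooth muscle markers, 9 of 11 tested had lower levels in LSC GFP+ cells (limma, unadjusted p under 0.05), with a list mean of -0.11 to 0.38 on LSC GFP+ arrays and 1.12 to 2.09 on LSC GFP- arrays. Acta2, the smooth muscle actin, stayed well above background on all 6 arrays and had a log2 difference of -2.13 (limma p 0.000953). Stromal fibroblast markers had a list mean of -1.08 to -0.43 against -0.29 to 1.09, and 7 of 11 were lower. Glial and neuronal markers had a list mean of 0.21, -1.88 and -0.37 on the LSC GFP+ arrays and 1.60, -0.60 and 0.53 on the LSC GFP- arrays, in the order of the replicate numbers, lower at each number though the populations overlapped. Basal markers moved the other way, with a list mean of 3.01 to 3.18 against 2.24 to 2.37 and 8 of 12 higher. The mean of the 9 tested AP-1 members was 2.16 to 2.56 on LSC GFP+ arrays and 1.58 to 1.91 on LSC GFP- arrays. The sorts are bulk samples, so fewer cells of a type and less RNA per cell cannot be told apart, and the part of cell composition in the AP-1 values was not tested.

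Transcripts of 7 AP-1 members, Fos, Fosb, Fosl1, Jun, Junb, Atf3 and Maff, were higher on every LSC GFP+ array than on any LSC GFP- array. Of these, 6 passed limma's test (unadjusted p under 0.05) and Fos missed it, while Fosl2 and Jund overlapped and Batf was not detected well enough to be tested. The differences of the 7 genes lay between 0.56 and 1.02 on the log2 scale. The median over the 9 tested members was 0.61, against -0.01 over the 25608 tested genes. Among all tested features, 7.9% were called, 3.38% as higher and 4.53% as lower in LSC GFP+ cells, and 6.61% did not overlap with the higher values in LSC GFP+ cells and 5.65% with the lower ones. After Benjamini-Hochberg adjustment in limma 0.0027% of the features, which is 1, passed 0.05, and 0 members did, the lowest adjusted p being 0.261 for Maff. Fosl1 entered through the LSC GFP+ arrays, so the count was also taken over the 8 members well above background on all 6 arrays, of which 5 passed in the same fit. A separate limma fit over the 33845 features above background on all 6 arrays called 6 of these 8, with Fos now at p 0.0488, and 3.45% of its features as higher.

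**Figure D1:**
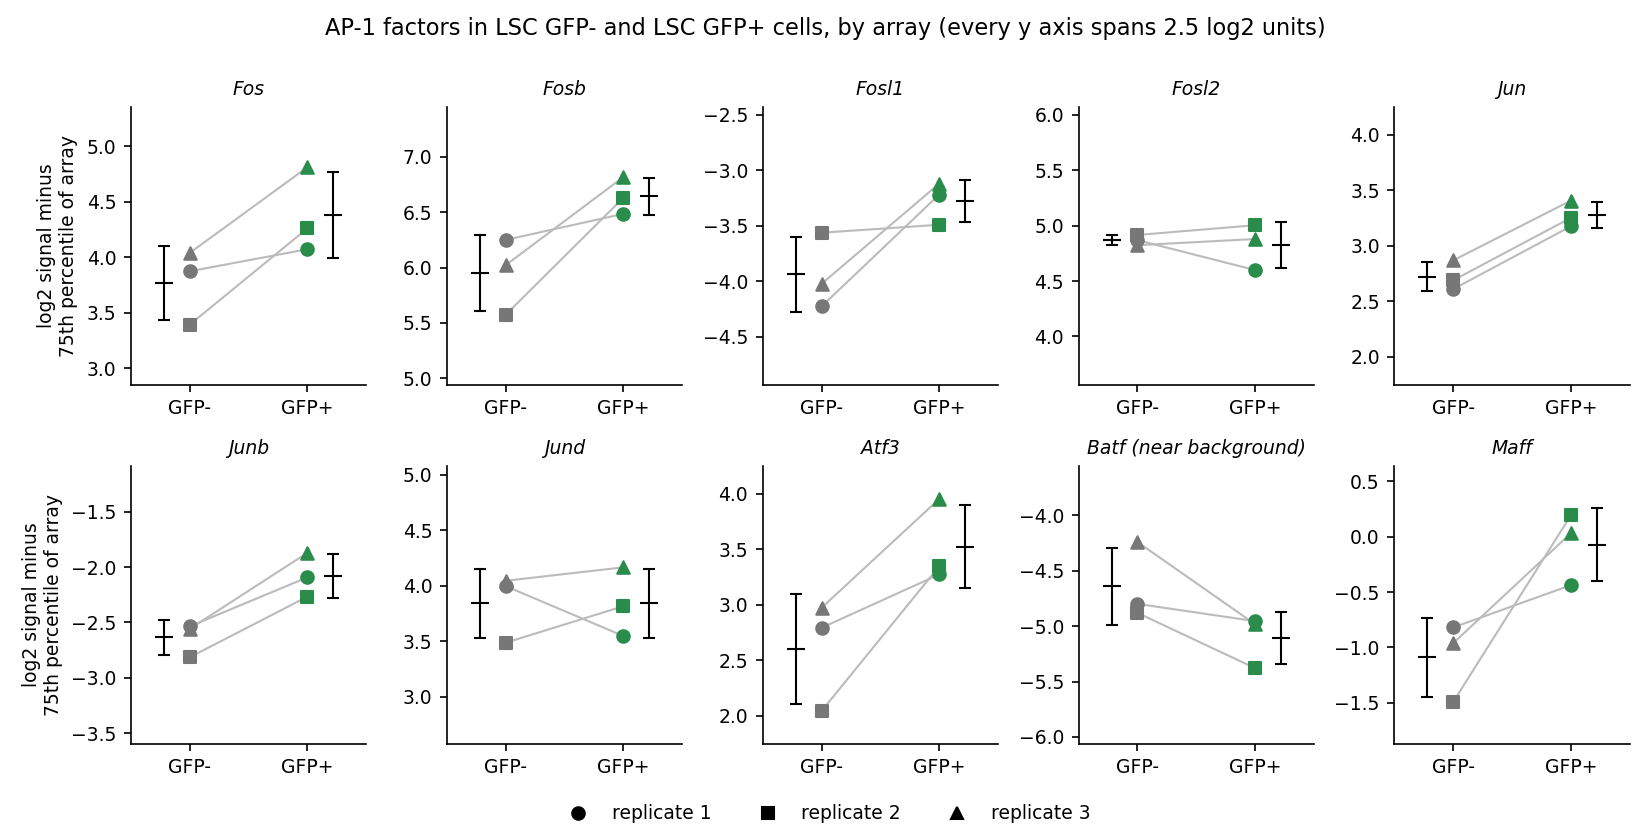
Log2 signal minus the 75th percentile of the array (vertical axis) for each AP-1 member, with 1 point per array, lines joining arrays with the same replicate number, and black bars for the mean ± SD of each population (n = 3). The points of the populations are apart for Fos, Fosb, Fosl1, Jun, Junb, Atf3 and Maff and overlap for Fosl2 and Jund, and Batf lies near the background.

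Of the Fos family, Fos is the classic early response gene of growth factor signaling. In the order of the replicate numbers, as for all members, its level was 4.07, 4.26 and 4.81 on the LSC GFP+ arrays and 3.87, 3.39 and 4.04 on the LSC GFP- arrays. The lowest LSC GFP+ array lay just above the highest LSC GFP- array. The difference was 0.61 (SE 0.27, n = 3 per population, 95% confidence interval -0.02 to 1.24) with an unadjusted limma p of 0.0552 and an adjusted p of 0.649. In the paired fit, in which replicate number was a block, the limma p of Fos was 0.0207. Without LSC GFP+ replicate 3 the difference was 0.40 (limma p 0.186) and without LSC GFP- replicate 2 it was 0.43 (limma p 0.191), and the methods' t-test on all arrays gave a p of 0.106. Fos was read by 10 spots on each array, of which 8 to 10 were unmarked, and these spots differed among themselves by an SD of 0.05 to 0.06, far less than the arrays of a population did (SD 0.38 and 0.34). The feature, A_52_P262219, lies at chr12:86817900-86817959 of mm9, the build of the array design, as do all feature positions given here.

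Fosb, an early response gene whose protein pairs with Jun proteins as Fos does, followed the same pattern. Its level was 6.48, 6.63 and 6.81 on the LSC GFP+ arrays and 6.25, 5.57 and 6.02 on the LSC GFP- arrays. The populations did not overlap, and LSC GFP- replicate 2 was the lowest array. The difference was 0.69 (SE 0.23), with a limma p of 0.0183 and an adjusted p of 0.435, for feature A_55_P2113051 at chr7:19888168-19888227. Without LSC GFP- replicate 2 or without LSC GFP+ replicate 3 it was 0.51 and 0.61 and missed the threshold, with p of 0.0770 and 0.0590 in limma's test.

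Fosl1, a Fos family gene that responds later and is itself a target of AP-1, was dim. Its level was -3.22, -3.49 and -3.12 on the LSC GFP+ arrays and -4.23, -3.56 and -4.02 on the LSC GFP- arrays, where it cleared the background on 2 of 3 arrays. The populations were apart by a narrow margin at replicate 2, where the difference was 0.07, against 1.01 and 0.90 at replicates 1 and 3. Over all arrays the difference was 0.66 (SE 0.24), with a limma p of 0.0238 and an adjusted p of 0.481 (feature A_51_P308796 at chr19:5455496-5455555). Under another background correction, normexp, it was 0.16 with a limma p of 0.302, and leaving out LSC GFP+ replicate 1 or 3, or LSC GFP- replicate 1 or 3, ended the call as well, with limma p between 0.0530 and 0.0972. So did an intensity trend in limma, with a p of 0.0628.

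Fosl2, the Fos family gene with a slow and lasting response, did not pass the test with either feature. Its brighter feature, A_55_P1995195 at chr5:32460076-32460135, had levels of 4.60, 5.0 and 4.88 on the LSC GFP+ arrays and 4.87, 4.91 and 4.82 on the LSC GFP- arrays. All 3 LSC GFP- arrays lay within the range of the LSC GFP+ arrays. The difference was -0.04 (SE 0.19), and its 95% confidence interval ran from -0.49 to 0.41, which leaves out the 0.56 of Jun but not smaller differences. The second feature, A_51_P507242 at chr5:32455088-32455147, gave 1.49, 1.51 and 1.58 against 1.62, 1.44 and 1.44, with a difference of 0.02 (95% confidence interval -0.39 to 0.44).

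Among the Jun genes, Jun encodes the strongest activator of the family and regulates its own promoter. Its level was 3.18, 3.25 and 3.41 on the LSC GFP+ arrays and 2.61, 2.69 and 2.87 on the LSC GFP- arrays. The populations were well apart, and the difference within each replicate number was nearly constant, at 0.57, 0.56 and 0.54. Over all arrays it was 0.56 (SE 0.19), with a limma p of 0.0187 and an adjusted p of 0.440 (feature A_55_P2158990 at chr4:94716928-94716987). Of the sum of squares of Jun over the 6 arrays, 88.0% went with population and 11.9% with replicate number. The medians over all tested features were 11.9% with population and 58.0% with replicate number. The call was lost in limma's test without LSC GFP- replicate 1, without LSC GFP- replicate 2 and without LSC GFP+ replicate 3 (p of 0.0758, 0.0595 and 0.0670), with differences of 0.50, 0.54 and 0.49.

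Junb, whose protein can oppose Jun on some promoters, had levels of -2.09, -2.27 and -1.87 on the LSC GFP+ arrays and -2.54, -2.81 and -2.56 on the LSC GFP- arrays. The populations did not overlap, so every replicate number showed the same direction. The difference was 0.56 (SE 0.20), with a limma p of 0.0251 and an adjusted p of 0.487, for feature A_55_P2011106 at chr8:87501881-87501940. It was 0.29 under normexp (limma p 0.0624), 0.47 without LSC GFP- replicate 2 (p 0.0968) and 0.46 without LSC GFP+ replicate 3 (p 0.0919), and missed the threshold in each of these limma fits.

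Jund, the Jun gene that most cells express without stimulation, did not pass the test. Its level was 3.55, 3.82 and 4.17 on the LSC GFP+ arrays and 4.0, 3.49 and 4.04 on the LSC GFP- arrays. The populations overlapped over most of their range. The difference was 0.00 (SE 0.25, 95% confidence interval -0.58 to 0.58), with values of -0.45, 0.33 and 0.12 at replicates 1, 2 and 3 (feature A_51_P357744 at chr8:73224436-73224495). That interval includes the differences of Jun and Junb.

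The pairs within a family were therefore set against each other on each array. The log2 ratio of Jun to Jund was higher in LSC GFP+ than in LSC GFP- cells by 0.56, and its values of -0.37, -0.56 and -0.76 did not overlap with -1.39, -0.80 and -1.18. The ratio of Junb to Jund was higher by 0.56, that of Fosb to Fosl2 by 0.74 and that of Fos to Fosl2 by 0.66, again without overlap. Each of these 4 comparisons had an exact two-sided permutation p of 0.1 over the 3 against 3 samples, the smallest this design allows, and 0.1 after Benjamini-Hochberg adjustment over the 4. The pairs were chosen after the levels had been seen, and each set a member without overlap against 1 with overlap. Their p is therefore no independent evidence. Fosl1, also without overlap, was not among the 4 comparisons. At replicate 2 its difference was 0.07 and that of Fosl2 0.09, so their ratio was not higher in LSC GFP+ cells at every replicate number.

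Of the other partners, Atf3 is induced by many kinds of stress and often acts as a repressor. Its level was 3.27, 3.34 and 3.95 on the LSC GFP+ arrays and 2.79, 2.04 and 2.97 on the LSC GFP- arrays. The populations did not overlap, LSC GFP- replicate 2 being the lowest array by a wide margin. Signal was 1.90-fold higher in LSC GFP+ cells, a log2 difference of 0.92 (SE 0.31), with a limma p of 0.0176 and an adjusted p of 0.429 (feature A_52_P452689 at chr1:192994547-192994606). Without LSC GFP- replicate 2 the difference was 0.64 (limma p 0.0624) and without LSC GFP+ replicate 3 it was 0.71 (limma p 0.0583). The methods' t-test on all 6 arrays did not call Atf3 either, its p without moderation being 0.0612.

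Maff, a small Maf protein that has no activation domain and binds DNA with partners such as Nrf factors, showed the largest difference of the 9 tested members. Its level was -0.44, 0.19 and 0.03 on the LSC GFP+ arrays and -0.82, -1.49 and -0.96 on the LSC GFP- arrays. Every LSC GFP+ array was above every LSC GFP- array, and the difference was 0.38, 1.68 and 0.99 at replicates 1, 2 and 3. Signal was 2.03-fold higher over all arrays, a log2 difference of 1.02 (SE 0.26), with a limma p of 0.00496 and an adjusted p of 0.261 (feature A_52_P608322 at chr15:79189442-79189501). Maff passed an unadjusted p under 0.05 in all 16 alternatives tried, with differences of 0.74 to 1.20 and p of at most 0.0223 in the limma fits and the methods' t-test.

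Batf, a partner of Jun proteins known mainly from lymphocytes, cleared the background on 0 of 3 arrays of LSC GFP+ cells and 1 of 3 of LSC GFP- cells. Its feature, A_51_P114616 at chr12:87049872-87049929, gave -4.96, -5.38 and -4.98 against -4.80, -4.88 and -4.24. Its spots differed among themselves by an SD of 0.38 to 0.92 on an array, so these values carry little order, and no fold is given.

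**Figure D2:**
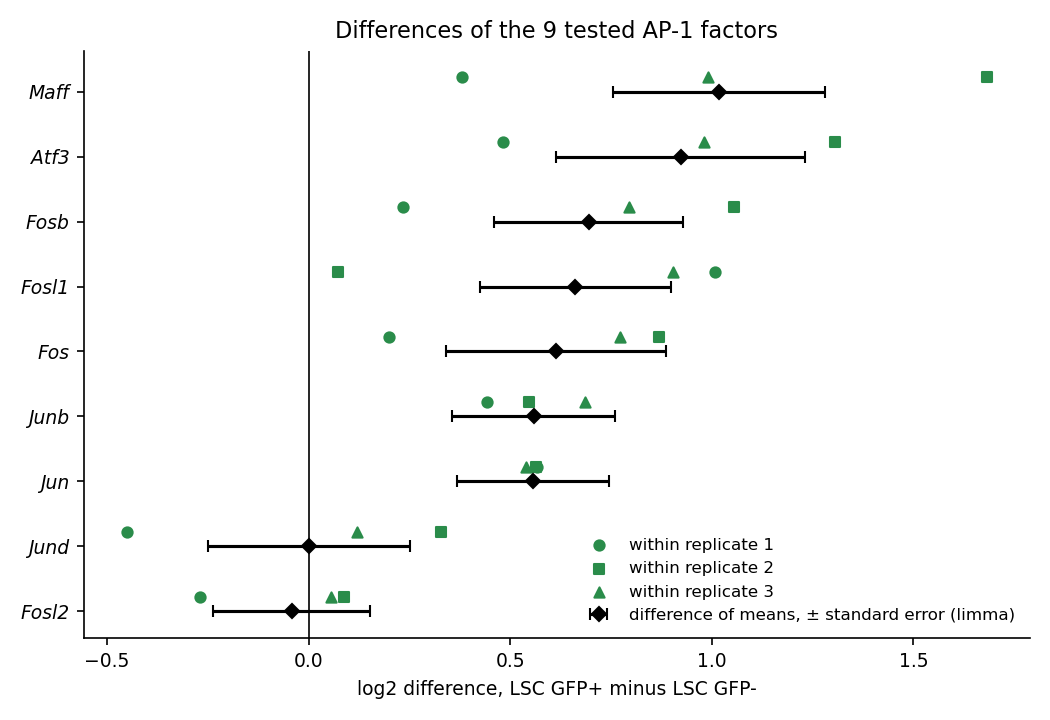
Log2 difference LSC GFP+ minus LSC GFP- of each of the 9 tested members (horizontal axis), with the mean and its standard error and the differences at replicates 1, 2 and 3 as single points. The 7 members whose populations did not overlap have means between 0.56 and 1.02 and therefore points above 0 at all 3 numbers, whereas the means of Fosl2 and Jund lie at 0.

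The same 7 members were higher in LSC GFP+ cells at all 3 replicate numbers, which follows from their populations not overlapping and is no further result. None of the 9 tested was lower at all 3. The member count rested on single arrays. It was 2 without LSC GFP- replicate 2, the lowest array for Fos, Fosb, Junb, Atf3 and Maff, and 1 without LSC GFP+ replicate 3, the highest array for Fos, Fosb, Fosl1, Jun, Junb and Atf3. In that last fit only Maff passed. Without any 1 of the other 4 arrays it was 4 to 6. With the samples paired by a replicate block, limma called 7 members, Fos in addition to the other 6, and 5478 features in all, against 2924 without the block, 6.75% of all features as higher and 8.06% as lower, with 0 members and 0 features after adjustment.

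**Figure D3:**
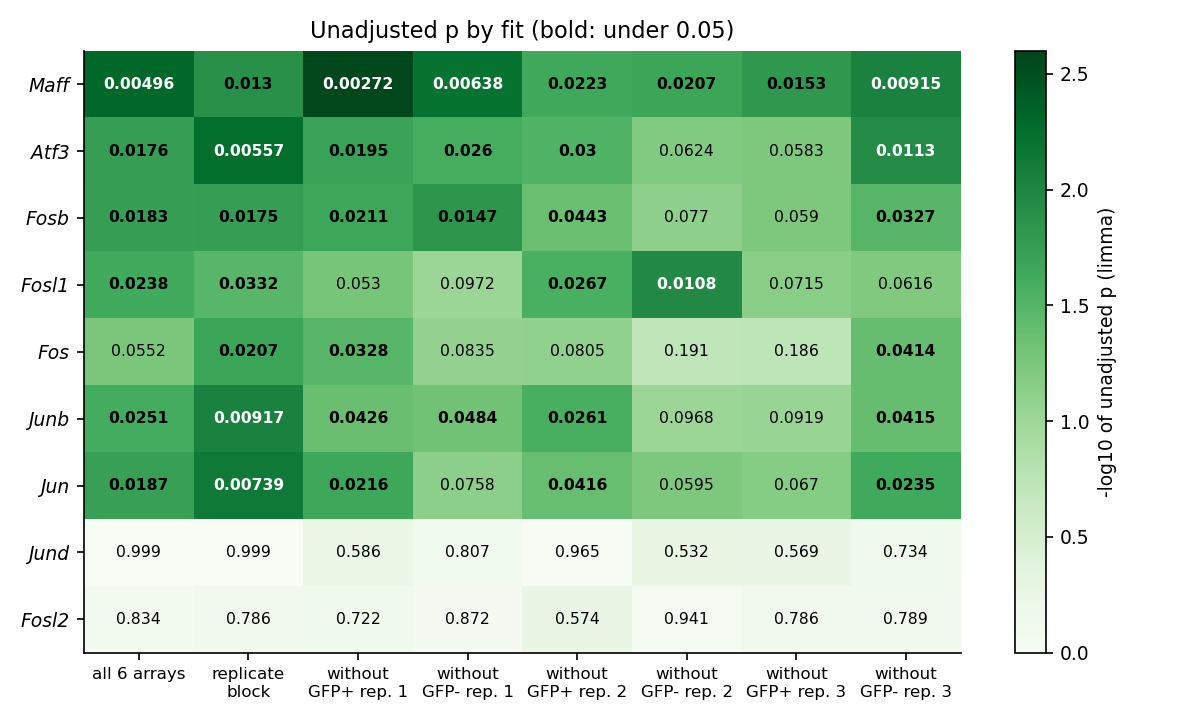
Unadjusted limma p of each tested member with all arrays, with the replicate block and with each array left out in turn, printed in the cells and shaded by size. Maff stays under 0.05 in every column, Fosl2 and Jund in none, and the most cells over 0.05 stand in the columns without LSC GFP- replicate 2 and without LSC GFP+ replicate 3.

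Most of the members also varied together from array to array. Over the 6 arrays, the Pearson correlation between tested members was positive for 30 of 36 pairs, with a median of 0.63. The 6 genes Fos, Fosb, Jun, Junb, Atf3 and Maff, grouped after their values were seen, correlated with each other at 0.83 to 0.98, and after the mean of each population had been taken out at 0.21 to 0.97 with a median of 0.72. Fos and Atf3 followed each other most closely, with r = 0.98. Jund behaved in its own way. It correlated with the 6 genes at 0.22 to 0.68 over all arrays, but at 0.62 to 0.98 within the populations, so that its arrays were ordered like those of Fos while its population means were equal. Fosl2 stood apart in both views, at -0.28 to 0.11 over all arrays and at -0.29 to 0.54 within the populations. Within the populations, the correlation of Fosl1 was negative with 7 of the 8 other members. It ran from -0.80 with Maff and -0.71 with Fosb to 0.20 with Jun. Fosl1 was dim and cleared the background on 2 of 3 LSC GFP- arrays, so noise near the background limits these values. These correlations describe 6 arrays that share a slide and a scaling by 1 percentile for each array. Members that differ between the populations in the same direction tend to correlate over all arrays for that reason alone. Correlations between pairs of other genes were not computed, over all arrays or within the populations, so there is no baseline for these values.

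**Figure D4:**
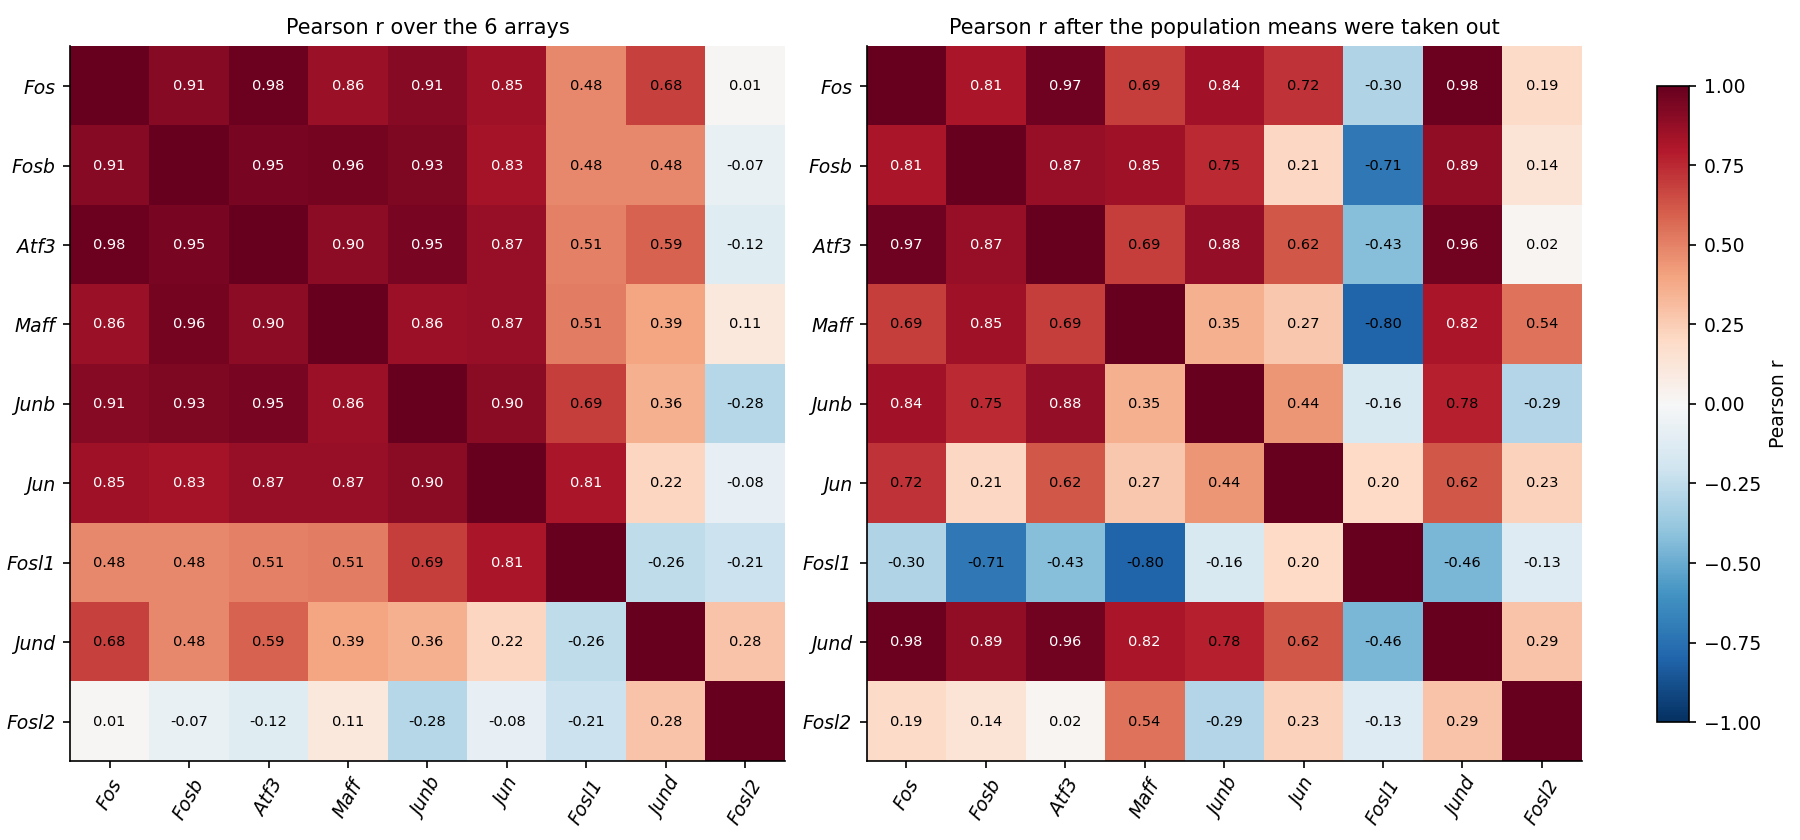
Pearson r between the 9 tested members over the 6 arrays (left) and after the population means were taken out (right), on a color scale from -1 to 1. On the left the 6 genes at the top correlate at 0.83 to 0.98, and on the right Jund joins them at 0.62 to 0.98 while Fosl1 does not.

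The genes most like the AP-1 profile were looked for among 23777 genes well above background on all 6 arrays. This number includes 8 members, which were left out of the ranking. The mean of the members, each centered over the arrays, was 0.09, 0.24 and 0.50 on the LSC GFP+ arrays and -0.20, -0.48 and -0.15 on the LSC GFP- arrays. The 10 highest correlations with it were those of Cyth3, Ctnnal1, Fbl, Slc25a15, Hoxa10, Atad3a, Btg2, the transcript ENSMUST00000134929, Lysmd2 and Mfge8, at r between 0.987 and 0.996 over 6 arrays. Btg2, an early response gene that restrains proliferation, was the only 1 of them on the lists below. With so many genes and 6 arrays, values of this height describe these arrays and no more.

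Of the other bZIP genes that can join AP-1 dimers, 15 of 17 could be tested and few moved. Mafk, a further small Maf gene, was higher by 0.55 (SE 0.21) and Batf3 differed by -0.66 (SE 0.28), the only calls at an unadjusted p under 0.05, with limma p of 0.0310 and 0.0433. The list median was 0.19. With the replicate block Batf3 missed the threshold (limma p 0.0659). Of the 12 regulators of the Fos and Jun genes, such as Creb1, Srf and the Elk factors, 0 passed limma's test at the unadjusted threshold and 0 after adjustment, with a median of 0.05, and with the replicate block 1 passed, Creb1 at 0.36 (limma p 0.0394). Among the 18 MAP kinases upstream of AP-1, 1 passed, Mapk9, a JNK gene, at -0.59 (SE 0.24, limma p 0.0398), and the median was 0.03. With the replicate block 1 of them was called higher, Map2k6, and 3 lower, Mapk9, Mapk10 and Map3k1, of which Mapk10 cleared the background on 2 of 3 LSC GFP+ arrays. Genes named only for the block here and in the other lists were picked after their values were seen.

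The MAP kinase phosphatases, which switch those kinases off and many of which are induced by them, had a median difference of 0.31 over 11 genes. Of the 11, 10 were above 0, against 49.0% of all tested genes. Only 9 of the 11 were above background on all 6 arrays. The others entered through the LSC GFP+ arrays, where they were higher, so the median and the count above 0 rest in part on the filter. Dusp6, the phosphatase of ERK, had levels of 3.57, 3.61 and 3.39 on the LSC GFP+ arrays and 2.55, 2.37 and 2.62 on the LSC GFP- arrays. The populations were far apart, with a difference of 1.01 (SE 0.19) and a limma p of 0.000684 (adjusted p 0.129). Dusp14 was the other phosphatase called, at 0.48 (SE 0.20, limma p 0.0429), and 0 were called lower.

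The early response genes outside AP-1, of the Egr, Nr4a and Ier families and their like, had the highest median of the early response and signaling lists, 0.80 over 12 genes. Of the 12, 8 were called higher in LSC GFP+ cells and 0 lower. Nr4a1, an orphan nuclear receptor, had levels of 4.83, 4.96 and 4.74 on the LSC GFP+ arrays and 4.02, 3.23 and 3.28 on the LSC GFP- arrays. The LSC GFP+ arrays were close together and all above the LSC GFP- arrays, a difference of 1.34 (SE 0.26, limma p 0.000831, adjusted p 0.135). Nr4a2 was higher by 1.32 (SE 0.31), and the smallest called differences were those of Egr1, 0.66 (SE 0.24), and Btg2, 0.61 (SE 0.24). Earlier results of these data had already shown this group to be higher, so its count is no independent evidence of that direction.

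The known AP-1 target genes went both ways. Of 28 on the list 18 could be tested, 7 were higher and 1 was lower at an unadjusted p under 0.05, and the median was 0.21. Mt2, a metallothionein, had levels of 5.79, 5.81 and 5.84 on the LSC GFP+ arrays and 4.71, 4.38 and 4.73 on the LSC GFP- arrays. The 3 LSC GFP+ values nearly coincided, and the difference was 1.21 (SE 0.19, limma p 0.000247, adjusted p 0.0992). Plaur, the receptor of urokinase, was higher by 0.98 (SE 0.27), and Cd44, a receptor of hyaluronan, by 0.61 (SE 0.22). Plau, urokinase itself, ran against them at -0.88 (SE 0.33, limma p 0.0294). With the replicate block 7 were called higher and 3 lower, Plau, Fn1 and Ivl.

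The heat-shock genes, which respond to protein damage, had 11 of 11 differences above 0, against 49.0% of all tested genes. Their median was 0.38, with 2 calls. With the replicate block in limma there were 6, in a fit that called 6.75% of all features higher. Hspa1a, an inducible chaperone, was higher by 0.81 (SE 0.27, limma p 0.0177) and Hsph1, a co-chaperone, by 0.60 (SE 0.18, limma p 0.0116). Their list mean was 4.35 to 4.58 on LSC GFP+ arrays and 3.86 to 4.22 on LSC GFP- arrays. Whether these lists and the AP-1 members share a source was not tested.

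The marker lists gave the other context of the AP-1 values. Basal markers had a median of 0.73, with Dsc3, a desmosomal cadherin, at 2.05, Krt17 at 1.40, Krt5 at 0.70 and Krt15 at 0.52. Krt14 differed by 1.18 (limma p 0.000821) and Trp63, the basal master regulator, by 0.11 (limma p 0.577). The study names Trp63, beside Krt5 and Krt14, among the basal markers enriched in LSC GFP+ cells. Only the brightest tested feature was read here, for Trp63 and for every other gene of these lists. A difference on another feature was not looked for. Luminal markers had a median of -0.24 and were called in both directions, among them Hoxb13 at 0.80 against Tmprss2 at -0.54 and Prom1 at -0.53, while Krt8 differed by -0.30 (limma p 0.307). Smooth muscle markers had a median of -1.51, with Myh11, the smooth muscle myosin, at -2.01 and Tagln at -0.86. Stromal markers had a median of -1.21, although Dcn, at 1.19, and Fbln1, at 0.90, were higher. Fap and Pdgfra had the lowest differences, -2.37 and -2.36. Both entered through the LSC GFP- arrays. On the LSC GFP+ arrays they cleared the background on 1 and 2 of 3, so the size of these differences is uncertain. Of the 11 stromal markers tested, 8 were above background on all 6 arrays. Of the markers of lineages that the sort removed, Ptprc, the CD45 gene, was at -1.39 to -1.54 on the 6 arrays and differed by -0.05, and Pecam1, the CD31 gene, differed by -0.55 (limma p 0.377). The median was -0.22 over 8 endothelial markers, with Vwf at -0.82, -0.05 over 11 immune markers with 0 called by limma, adjusted or not, and -1.25 over 9 glial and neuronal markers, all of them below 0. Of these Ncam1, at -1.25, was the only call without pairing. With the replicate block 7 of the 9 were lower (limma, unadjusted p under 0.05), against 8.06% of all features, and the same number lay lower at every replicate number. Of the 9, 6 were above background on all 6 arrays. Stmn2, a neuronal protein of microtubules, had the lowest difference, -2.63, with -2.53, -4.26 and -1.11 at replicates 1, 2 and 3. Its limma p was 0.172 without the block and 0.00666 with it, and it was named after its values were seen. It cleared the background on 2 of 3 LSC GFP+ arrays, so the size of its difference is uncertain too.

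**Figure D5:**
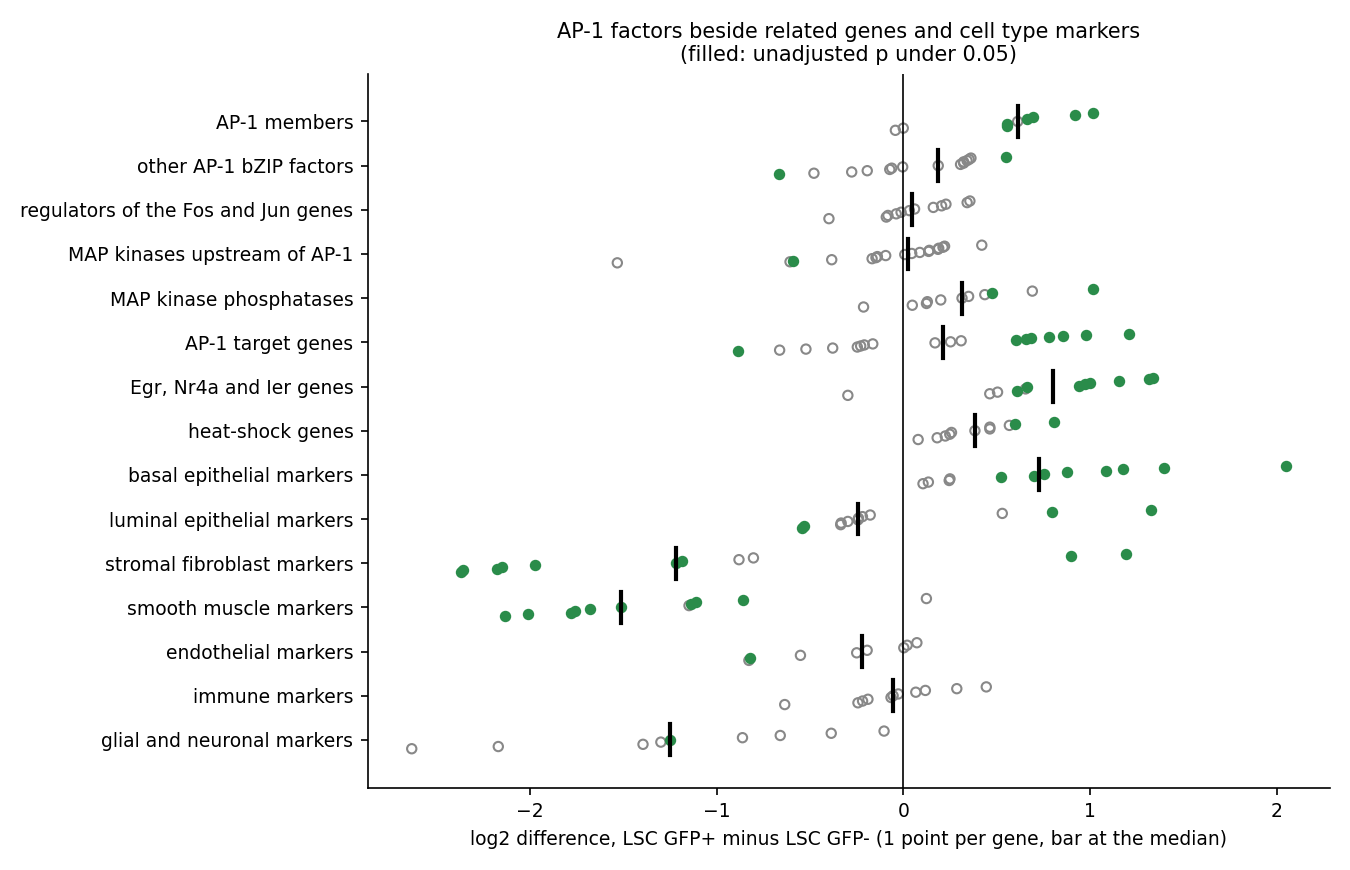
Log2 difference LSC GFP+ minus LSC GFP- (horizontal axis) of each tested gene of the AP-1 members and the other lists, with the list median as a bar and filled points for an unadjusted limma p under 0.05. The AP-1 members have a median of 0.61 and the Egr, Nr4a and Ier genes 0.80, and the medians of the smooth muscle (-1.51), glial and neuronal (-1.25) and stromal (-1.21) markers lie furthest to the left.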

How the data were processed

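RNA from 3 LSC GFP+ and 3 LSC GFP- samples was measured on 1-color Agilent SurePrint G3 Mouse arrays. Per the file headers, the deposited intensity values are processed signals of Feature Extraction 11.0.1.1 on the linear scale, with background subtracted and not normalized between arrays, whereas the submitters' processing notes name version 10.7.3.1. A second deposited table repeats these intensities, rounded to within 0.496%. From them, log2 signals minus the 75th percentile of each array were computed here, spots marked as outliers (123 to 154 per array) were left out, and spots of a feature were averaged. Both populations entered a limma fit (version 3.58.1, lmFit and eBayes, R 4.3.3) without covariates, and two-sided p values were adjusted over 36990 tested features (Benjamini-Hochberg). A gene is its brightest feature. Names came from the RefSeq table of GRCm38.p6 for 26582 features and otherwise from the array design, whose positions are on mm9.

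Same-numbered samples deviated together from their population means (r = 0.43, 0.28 and 0.67 across features), so the numbers in the sample labels were taken to pair the samples, and the replicate block was run as an alternative. Samples of unlike number gave negative values except 0.22 between LSC GFP+ replicate 1 and LSC GFP- replicate 2. The other alternatives were normexp with an offset of 50, quantile normalization, the array median, the rounded table, 2 other filters, the methods' t-test, an intensity trend, the mean over the features of a gene, and each array left out. The members, the lists and the tests were chosen with earlier results of these data known. Named genes are all members, the 2 highest and 2 lowest called differences of each list, the 10 genes most like the members, and the defining markers, except 1 gene that is not reported here. The limma script was tested on simulated data. No set test was run.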

Additional observations from a re-analysis of the deposited data

How the results depend on the processing

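The 7 members whose populations did not overlap had a positive difference under every alternative in which they were tested, and 0 members passed the adjusted threshold of limma or of the methods' t-test under any of them, against 6 at an unadjusted p under 0.05. That count was 5 under normexp, 7 under quantile normalization, 5 with the methods' t-test and 7 with the replicate block, which added Fos and changed no other member's call. Beside the lists named above, the block gave 3 higher phosphatases in place of 2, 9 higher Egr, Nr4a and Ier genes in place of 8 and 3 higher luminal markers in place of 2, and the counts of the basal, stromal, smooth muscle, endothelial and immune lists were equal in both fits. With 1 array left out it ranged from 1 to 6, the lowest values being 1 without LSC GFP+ replicate 3 and 2 without LSC GFP- replicate 2. Over all features the block gave 5478 calls, against 2924, and leaving out 1 array gave 2076 to 4048. Of the called features 42.7% were higher in LSC GFP+ cells, 50.9% under quantile normalization, 53.1% with the array median, 56.4% with the methods' t-test and 31.0% without LSC GFP+ replicate 1. The differences of Fosl2 and Jund, which passed no test, were -0.04 (SE 0.19) and 0.00 (SE 0.25) in the main fit and changed sign. Fosl2 was at 0.027 with the array median and between -0.13 and 0.072 with 1 array left out, and Jund was at -0.0043 under normexp, -0.064 under quantile normalization, -0.00043 in the rounded table and between -0.18 and 0.15 with 1 array left out. The cause was not tested. Fosl1, Junb and Batf were the dim members, and signal over background limits their values.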
